A study of Homo sapiens and Mus musculus with 18 samples.

Results

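Class I antigen presentation genes are described here in human Met5a cells given a form of the receptor AMHR2 and in mouse tumours from animals of different Amhr2 genotypes. The genes are a named list of 31 symbols, 15 human and 16 mouse, matched by gene name in the deposited tables. There are 58735 genes in the human table and 54532 genes in the mouse one, so the list is 31 of 113267 entries. All 15 human and all 16 mouse members passed the filter on low counts.

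Met5a is an immortalised line of human pleural mesothelial cells, and AMHR2 binds anti-Müllerian hormone as its type II receptor. Bulk RNA came from 4 libraries of cells given Amhr2-V1, which the series calls an active receptor, from 3 given Amhr2-V3, called inactive, and from 3 controls (CTR). KPCA is a line derived from mouse fallopian tube epithelium that is used to model high-grade serous ovarian cancer. The 8 KPCA tumours were named in their titles for Amhr2 knock-out mice (KO437, KO445, KO479 and KO543), heterozygous mice (Het563 and Het569) and wild-type mice (WT438 and WT568, C57BL6J). Because each of the 8 tumours has WT as its genotype tag, only the titles set these groups. The sources used here give neither the age of the mice nor whether the tumour cells carried the Amhr2 allele of the host. They also do not say that libraries with the same label are separate cultures, so the p-values measure the spread between samples only, and that spread may be technical. A suffix stands on both WT columns and on no others, and its effect and that of the WT genotype cannot be told apart.

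Class I molecules show peptides from inside the cell to CD8 T cells. The proteasome cuts proteins into peptides, the transporter TAP1-TAP2 carries them into the endoplasmic reticulum, ERAP1 trims them, and tapasin (TAPBP) helps to load them onto a heavy chain paired with beta-2-microglobulin (B2M). Interferons raise most of these genes through IRF binding at their promoters, together with the transactivator NLRC5, and exchange the catalytic subunits of the proteasome for PSMB8, PSMB9 and PSMB10.

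Promoter sequences from RefSeq (GRCh38.p14) were matched for 13 of the 15 human members, with 16 windows of 250 bases before to 50 after a start site. HLA-E and NLRC5 were not matched. A short form of the interferon-stimulated response element (ISRE) stood on either strand in 10 of the 13 genes. By window it stood in 10 of the 16, against 3.57% of the 35116 windows in the table. The shorter IRF core AANNGAAA, which overlaps every ISRE match, stood in 12 of the 13 genes. It stood in 13 of the 16 windows, against 22.8% of all windows. The 7 windows below belong to the genes that were highest in V1 2 and V1 3, as described further on, apart from HLA-E. The other matched genes, HLA-F, TAPBP, PSMB10, PSME1, PSME2 and ERAP1, each held an ISRE match and are not printed. ISRE matches were therefore not confined to the genes of that pattern. PSMB8 and TAP1 have 2 windows each. For PSMB8 the one with matches is shown, and for TAP1 the one with ISRE matches. Each is printed 5′ to 3′ on the strand of the gene, and capitals mark an ISRE or IRF core match on either strand. HLA-B lies at chr6:31357130-31357429 (minus strand), HLA-C at chr6:31272043-31272342 (minus), B2M at chr15:44711267-44711566 (plus), TAP1 at chr6:32853655-32853954 (minus), TAP2 at chr6:32838690-32838989 (minus), PSMB8 at chr6:32843998-32844297 (minus) and PSMB9 at chr6:32853942-32854241 (plus).
HLA-B: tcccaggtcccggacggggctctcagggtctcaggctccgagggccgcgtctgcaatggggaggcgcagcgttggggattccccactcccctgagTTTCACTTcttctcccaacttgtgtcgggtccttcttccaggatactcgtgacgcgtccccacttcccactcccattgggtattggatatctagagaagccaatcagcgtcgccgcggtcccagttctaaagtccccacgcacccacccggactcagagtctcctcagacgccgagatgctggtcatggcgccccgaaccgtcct
HLA-C: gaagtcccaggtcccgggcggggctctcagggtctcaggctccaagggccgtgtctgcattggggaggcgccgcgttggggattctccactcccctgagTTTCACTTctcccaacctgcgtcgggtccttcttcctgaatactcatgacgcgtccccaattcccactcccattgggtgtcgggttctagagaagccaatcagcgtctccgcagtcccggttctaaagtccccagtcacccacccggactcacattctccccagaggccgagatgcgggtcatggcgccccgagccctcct
B2M: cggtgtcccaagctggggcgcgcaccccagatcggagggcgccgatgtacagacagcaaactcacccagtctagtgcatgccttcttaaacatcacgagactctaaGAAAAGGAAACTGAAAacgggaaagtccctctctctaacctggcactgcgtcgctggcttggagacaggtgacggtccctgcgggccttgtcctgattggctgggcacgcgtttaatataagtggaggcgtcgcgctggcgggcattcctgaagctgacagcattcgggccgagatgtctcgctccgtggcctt
TAP1: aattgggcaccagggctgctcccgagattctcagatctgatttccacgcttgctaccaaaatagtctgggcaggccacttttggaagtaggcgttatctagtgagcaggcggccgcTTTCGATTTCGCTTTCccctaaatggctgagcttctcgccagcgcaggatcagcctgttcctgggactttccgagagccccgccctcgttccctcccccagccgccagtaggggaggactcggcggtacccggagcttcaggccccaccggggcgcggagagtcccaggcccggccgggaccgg
TAP2: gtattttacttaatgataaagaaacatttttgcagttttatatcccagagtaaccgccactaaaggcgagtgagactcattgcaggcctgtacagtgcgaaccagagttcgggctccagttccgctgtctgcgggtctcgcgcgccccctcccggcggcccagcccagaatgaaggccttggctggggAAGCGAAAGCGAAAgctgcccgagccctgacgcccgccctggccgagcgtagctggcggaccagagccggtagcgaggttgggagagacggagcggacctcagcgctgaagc
PSMB8: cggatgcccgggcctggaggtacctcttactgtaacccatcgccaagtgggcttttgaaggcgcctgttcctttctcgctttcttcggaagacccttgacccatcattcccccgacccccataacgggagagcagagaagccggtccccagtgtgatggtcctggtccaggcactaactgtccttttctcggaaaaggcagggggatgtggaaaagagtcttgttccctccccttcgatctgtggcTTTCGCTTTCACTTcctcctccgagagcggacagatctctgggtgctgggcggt
PSMB9: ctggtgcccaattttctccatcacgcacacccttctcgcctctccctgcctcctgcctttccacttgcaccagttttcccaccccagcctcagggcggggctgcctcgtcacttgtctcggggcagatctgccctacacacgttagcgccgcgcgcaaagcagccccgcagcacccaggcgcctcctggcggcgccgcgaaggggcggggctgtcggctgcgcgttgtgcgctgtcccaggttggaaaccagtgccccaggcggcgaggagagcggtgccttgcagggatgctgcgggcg

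HLA-B and HLA-C held the IRF core but not the ISRE, and their matches lay at almost the same distance from the start, at -155 to -148 and -151 to -144. B2M and TAP1 each held a pair of overlapping ISRE matches, from -144 to -129 in B2M and from -134 to -119 in TAP1. TAP2 held 1 ISRE match, from -58 to -49. PSMB8 was matched at its second start site, from -4 to 9. PSMB9 starts beside TAP1 on the other strand and held neither motif in its own window. The gamma-interferon-activated site letters TTCNNNGAA were found in 2 of the 16 windows, against 7.66% of all windows. These were the PSMB8 window shown and the TAP1 window that is not printed. An NF-kB consensus stood in 6 of the 16 windows against 11.3%, and the CCAAT box letters ATTGG in 7 against 34.6%. These matches are letters in a window and do not show that a factor binds there.

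**Figure D1:**
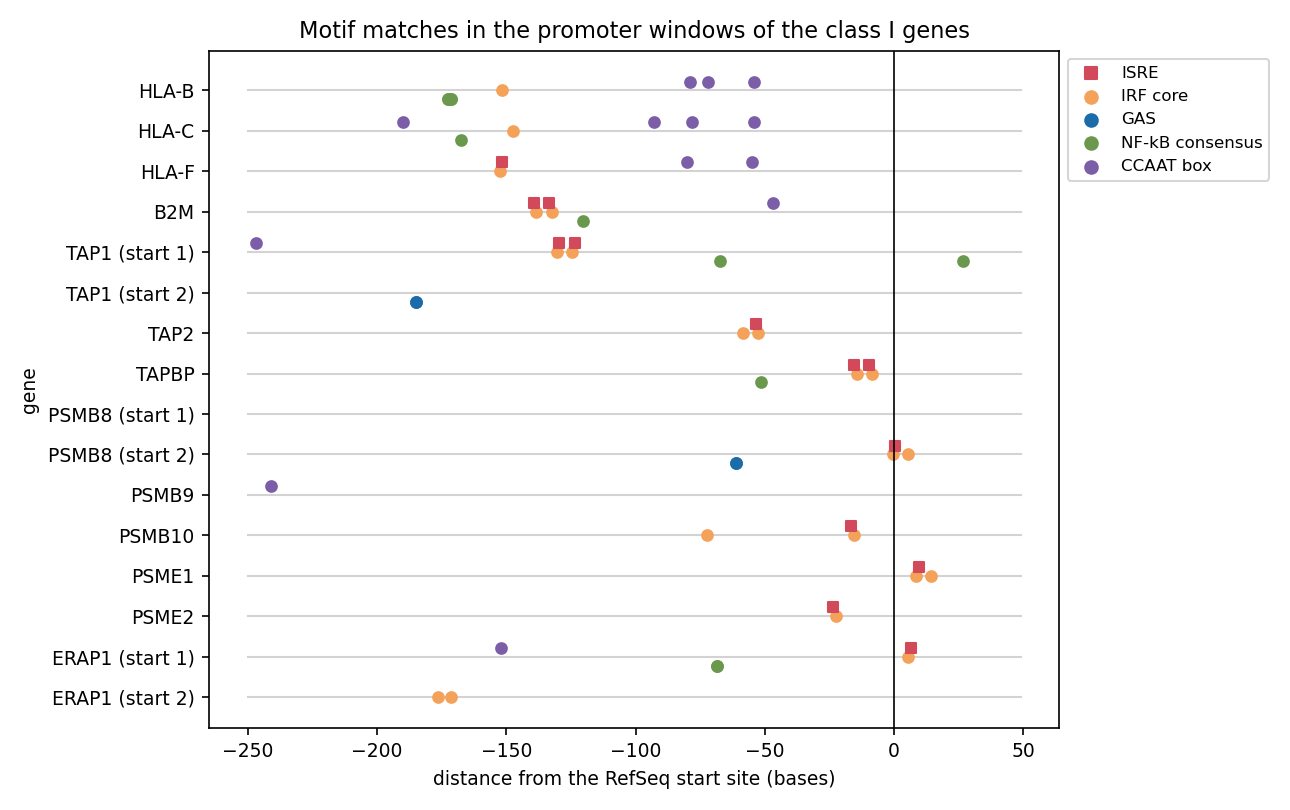
Motif matches in the 16 promoter windows of 13 human class I genes, by distance from the RefSeq start site in bases (x axis); each line is 1 window and each mark 1 match on either strand. ISRE matches (squares) stand in 10 of the 13 genes, and the HLA-B and HLA-C windows hold the IRF core without an ISRE match.

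Of the human members, 9 of 15 lie on chromosome 6, where the major histocompatibility complex is, and of the mouse members 10 of 16 lie on chromosome 17. In the human annotation (GENCODE 29 on GRCh38) the HLA-B gene runs from 31269491 to 31357188 on the minus strand and shares 2640 bases with HLA-C, which runs from 31268749 to 31272130. TAP1 (32845209 to 32853978, minus strand) shares 8770 bases with PSMB9 (32844136 to 32859585, plus strand), and PSMB9 also overlaps PSMB8. ERAP1 shares 18786 bases with CAST. The sources used here do not say whether counting used strand, so reads of the pairs on opposite strands could not be told apart. HLA-B and HLA-C lie on the same strand, so strand would not separate reads from their shared bases. The aligner and the counter are also not given, so values of the closely similar HLA and H2 heavy chain genes are uncertain.

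Total counts were between 15489888 and 21642906 in the Met5a libraries and between 17746902 and 28070669 in the tumours. AMHR2 had 68.1, 20.6, 1.98 and 5253 CPM (counts scaled to a fixed library size) in V1 1 to 4 and 6061, 61.8 and 2.72 in V3 1 to 3, against a count of 0 in each of the 3 CTR libraries (up to 0.14, 0.168 and 0.177 CPM for 3 reads). Amhr2 had at most 11 reads in any tumour, and at most 5 in WT, so its reads do not check the genotypes. V1 4 and V3 1, the libraries with the most AMHR2, were the closest of the 45 pairs of Met5a libraries, with a median absolute log2 difference of 0.12 over all genes tested. Met5a libraries held KRT8 at 746.1 to 3141 CPM, while calretinin (CALB2) was at 0.446 to 6.37 CPM in V1, 3.47 to 6.62 in V3 and 15.3 to 57.5 in CTR. Of all genes tested, 3.34% had every V1 library below CTR and 5.17% every V3 library. Of the 9 mesothelial markers tested, 7 had a log2 fold change below 0 in V1 relative to CTR and 2 above. In V3 relative to CTR, 6 were below 0 and 3 above. The leukocyte genes PTPRC and CD3E did not exceed 0.579 and 0.0941 CPM. The tumours held Krt8 at 1125 to 2023 CPM and Pax8 at 18.2 to 28.1 CPM.

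Per gene length, B2M was the most abundant member in Met5a, at a mean of 98.1 FPKM (fragments scaled by gene length and by library size) over the 10 libraries, with a range of 50.8 to 152.8. PSME1, a subunit of the proteasome activator PA28, followed at 87.7 FPKM (68.2 to 125). HLA-C, HLA-E and TAPBP stood next at 48.5, 47.5 and 43.2 FPKM, with overlapping ranges. PSME2, the other PA28 subunit, had 33.6 FPKM, HLA-B 25.8, PSMB8 12.4, TAP1 11.5 and TAP2 5.52. The lowest members were PSMB10 (4.27), PSMB9 (3.75), NLRC5 (2.75), ERAP1 (2.19) and the nonclassical heavy chain HLA-F (0.344 FPKM). Neighbours in this order overlapped in range, except ERAP1 and HLA-F, whose ranges were 1.58 to 2.82 and 0.026 to 0.569 FPKM.

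In Met5a, the clearest pattern was a spread within the V1 group. V1 2 and V1 3 lay above all 8 other libraries in 8 of the 15 members, HLA-B, HLA-C, HLA-E, B2M, TAP1, TAP2, PSMB8 and PSMB9, against 7.42% of all genes tested. V1 1 was the lowest of the 10 libraries in 10 members, against 18.1% of all genes, and below all 3 CTR libraries in 12, against 30.5%. V1 1 also stood apart over all genes: its 9 pairs with other libraries had median absolute log2 differences of 0.47 to 0.59 and ranked 29 to 44 of the 45 pairs. CTR 3 stood apart as much, with differences of 0.45 to 0.64 and ranks of 28 to 45 for its 9 pairs. V1 4 was inside the CTR range in 8 members, against 53.7% of all genes, and V3 1 in 11, against 55%. V1 1, V1 2 and V1 3 were singled out from the member values themselves. The shares of all genes beside them are therefore a description and not a test.

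HLA-B, a classical heavy chain, had 21.3, 163.5, 228.9 and 30.1 CPM in V1 1 to 4, 39.1, 79.2 and 83.7 in V3, and 34, 33.6 and 80 in CTR. Its highest library was 10.8 times its lowest, and both were V1. HLA-C, also classical, had 65.5, 236.1, 256.9 and 83 CPM in V1, 88.6, 112.5 and 108.4 in V3, and 72.1, 82.9 and 123.2 in CTR, so V1 held the extremes again. HLA-E, a nonclassical heavy chain recognised by the NKG2A receptor of natural killer cells, had 154, 221, 240.5 and 111.8 CPM in V1, 127.3, 133.9 and 108.9 in V3, and 92.7, 117.5 and 125.3 in CTR. Here 3 of the 4 V1 libraries stood above all others, V1 1 included. HLA-F had 0.116, 1.78, 2.26 and 1.33 CPM in V1, 1.39, 1.64 and 2.48 in V3, and 1.5, 0.842 and 1.77 in CTR. The V1 1 value is below the 0.174 CPM that 3 reads make in that library.

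B2M, the shared light chain, had 317.2, 869, 925.4 and 531.2 CPM in V1, 543.6, 590 and 496.8 in V3, and 526.2, 485.8 and 760.3 in CTR. The V3 libraries lay inside the CTR range and the V1 libraries below, inside and above it. TAP1 had 28.2, 119.8, 109.2 and 39.2 CPM in V1, 45.6, 46.8 and 40.9 in V3, and 39, 37.9 and 54.4 in CTR. TAP2 had 20.3, 62.3, 65.2 and 40.6 CPM in V1, 35.2, 32.5 and 20.3 in V3, and 23.3, 31.4 and 25.8 in CTR. For TAP2, V1 4 also lay above every V3 and CTR library, while V1 1 and V3 3 were lowest. TAPBP had 122.1, 322, 266 and 169.4 CPM in V1, 181, 168.8 and 216.2 in V3, and 174.5, 198.2 and 396.8 in CTR, where the highest library was CTR 3.

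Among the proteasome genes, PSMB8 had 22.6, 64.3, 74.4 and 27.6 CPM in V1, 28.9, 38.3 and 30.2 in V3, and 27.3, 26.7 and 35.7 in CTR. PSMB9 had 3.24, 24, 23 and 6.95 CPM in V1, 9.22, 10.6 and 9.82 in V3, and 11.3, 9.54 and 8.91 in CTR. For both, V1 2 and V1 3 were the highest libraries. For PSMB10 they were not, at 7.47, 6.44, 8.42 and 7.3 CPM in V1, 7.77, 8.14 and 5.37 in V3, and 8.84, 7.91 and 12.7 in CTR. PSME1 had 130.9, 194, 221.9 and 138.6 CPM in V1, 138.9, 197 and 173.9 in V3, and 129.1, 134.2 and 124 in CTR, so every V3 library lay above every CTR library. PSME2 was between 82.7 and 170.6 CPM in V1, 114.6 and 150.8 in V3, and 106.8 and 124.1 in CTR. The transactivator NLRC5 had 30.6, 40.4, 34.2 and 31 CPM in V1, 32.8, 22.7 and 22.3 in V3, and 22.6, 30.1 and 79.5 in CTR. Its highest library was CTR 3, outside the pattern of the heavy chains. ERAP1 ranged over 14.8 to 22.7 CPM in V1, 12.8 to 18.1 in V3 and 17.4 to 19.5 in CTR.

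**Figure D2:**
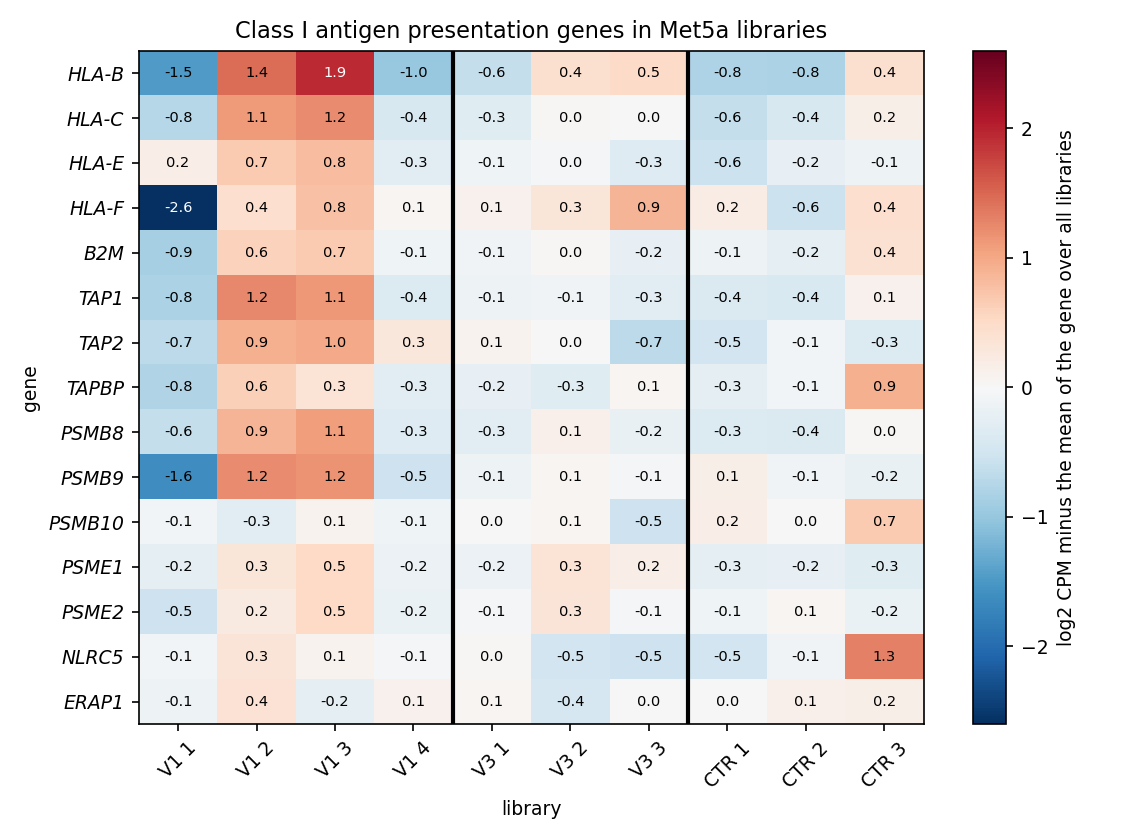
Log2 CPM of the 15 human members after subtracting the mean of each gene across the 10 Met5a libraries (colour and number), with members down the page and the V1, V3 and CTR libraries from left to right. V1 2 and V1 3 are high and V1 1 is low in most heavy chain, TAP, PSMB8 and PSMB9 cells of the map, while NLRC5 and PSMB10 are highest in CTR 3.

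A score was taken for each library as the mean over the members of log2 CPM after subtracting the mean of that gene. It was -0.75, 0.68, 0.74 and -0.23 in V1 1 to 4, -0.12, 0.02 and -0.09 in V3, and -0.26, -0.23 and 0.23 in CTR. The same score over 24 interferon-stimulated genes was -2.02, 1.57, 0.71 and 0.28 in V1, 0.38, -0.25 and -0.75 in V3, and -0.12, -0.25 and 0.45 in CTR. V1 1 was lowest and V1 2 and V1 3 were the highest on both scores. Counts of IFNG and IFNB1 were 0 in all 10 libraries. The libraries with the highest and the lowest member scores had 1.98 and 68.1 CPM of AMHR2, and V1 4 and V3 1, with 5253 and 6061 CPM, differed by a median of 0.09 on the log2 scale over the members, the smallest of the 45 pairs. Summed CPM of the 10 leukocyte markers was 6.08 to 12.8 in V1, 6.21 to 15.4 in V3 and 9.35 to 14.5 in CTR, and the 10 mesothelial markers summed to 1285 in V1 1 and to 1996 to 5102 in the other libraries. The part of these markers in the member values was not tested.

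Between V1 and V3, the comparison of the form called active with the form called inactive, 13 of 15 members had a log2 fold change above 0, against 53.8% of the 17175 genes tested. The median was 0.39, against 0.03 over all genes. By the quasi-likelihood test of edgeR with Benjamini-Hochberg adjustment over all genes, 0 members passed an adjusted p of 0.05, where 0% of all genes did. DESeq2 and limma also called 0 members. HLA-E was the 1 member with an unadjusted edgeR p under 0.05, against 4.01% of all genes, with 181.8 ± 59.6 CPM in V1 and 123.4 ± 12.9 in V3 (SD, n = 4 and 3), a log2 fold change of 0.56 (SE 0.26) and an adjusted p of 0.985. TAP1 (log2 fold change 0.74, SE 0.43), HLA-B (0.72, SE 0.71), TAP2 (0.68, SE 0.36) and HLA-C (0.64, SE 0.44) had larger changes with larger errors. Not 1 member had all V1 libraries above all V3 libraries (0 of 15), against 2.28% of all genes. The median moved to 0.16 without V1 2 and to 0.21 without V1 3. It was 0.45 without V1 4, 0.47 without V3 1 and 0.17 in limma on log2(FPKM + 1).

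V1 was set against CTR, and V3 against the same CTR libraries, the comparisons of each form of the receptor with control cells. For V1, 11 of 15 members had a log2 fold change above 0, against 51.2% of all genes, with a median of 0.41 against 0.01. Again 0 members passed in edgeR, DESeq2 or limma, against 0.00582% of all genes in edgeR. Unadjusted edgeR p-values under 0.05 were reached by 2 members, against 7.71% of all genes. HLA-E averaged 181.8 ± 59.6 CPM in V1 and 111.8 ± 17 in CTR (log2 fold change 0.70, SE 0.26, edgeR adjusted p = 0.597), and TAP2 47.1 ± 21 CPM in V1 and 26.8 ± 4.12 in CTR (0.81, SE 0.36, edgeR adjusted p = 0.631), with SD and n = 4 and 3. HLA-B had the largest log2 fold change, 1.17, with an SE of 0.72, while TAPBP, PSMB10, NLRC5 and ERAP1 were below 0. Members with all V1 libraries above CTR numbered 0, against 3.27% of all genes. Without V1 2 the median was 0.16, without V1 3 it was 0.21, and in limma it was 0.27. Without V1 1 and CTR 3 together it was 0.62, with 0 members called.

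For V3, 9 of 15 members had a log2 fold change above 0 relative to CTR, against 49.5% of all genes, with a median of 0.12. In edgeR 0 members passed the adjusted threshold (0% of all genes), 0 had an unadjusted p under 0.05 (4.23%), and DESeq2 and limma called 0. PSME1 alone had all 3 V3 libraries above all 3 CTR libraries, which 4.93% of all genes had, at 169.9 ± 29.3 CPM in V3 and 129.1 ± 5.1 in CTR (SD, n = 3 each; log2 fold change 0.40, SE 0.23, edgeR adjusted p = 1). NLRC5 had the lowest value, -0.76 (SE 0.39), and CTR 3 was its highest library. The median was 0.04 without V3 1, 0.00 without V3 2, 0.04 without CTR 1 and 0.07 without CTR 2.

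**Figure D3:**
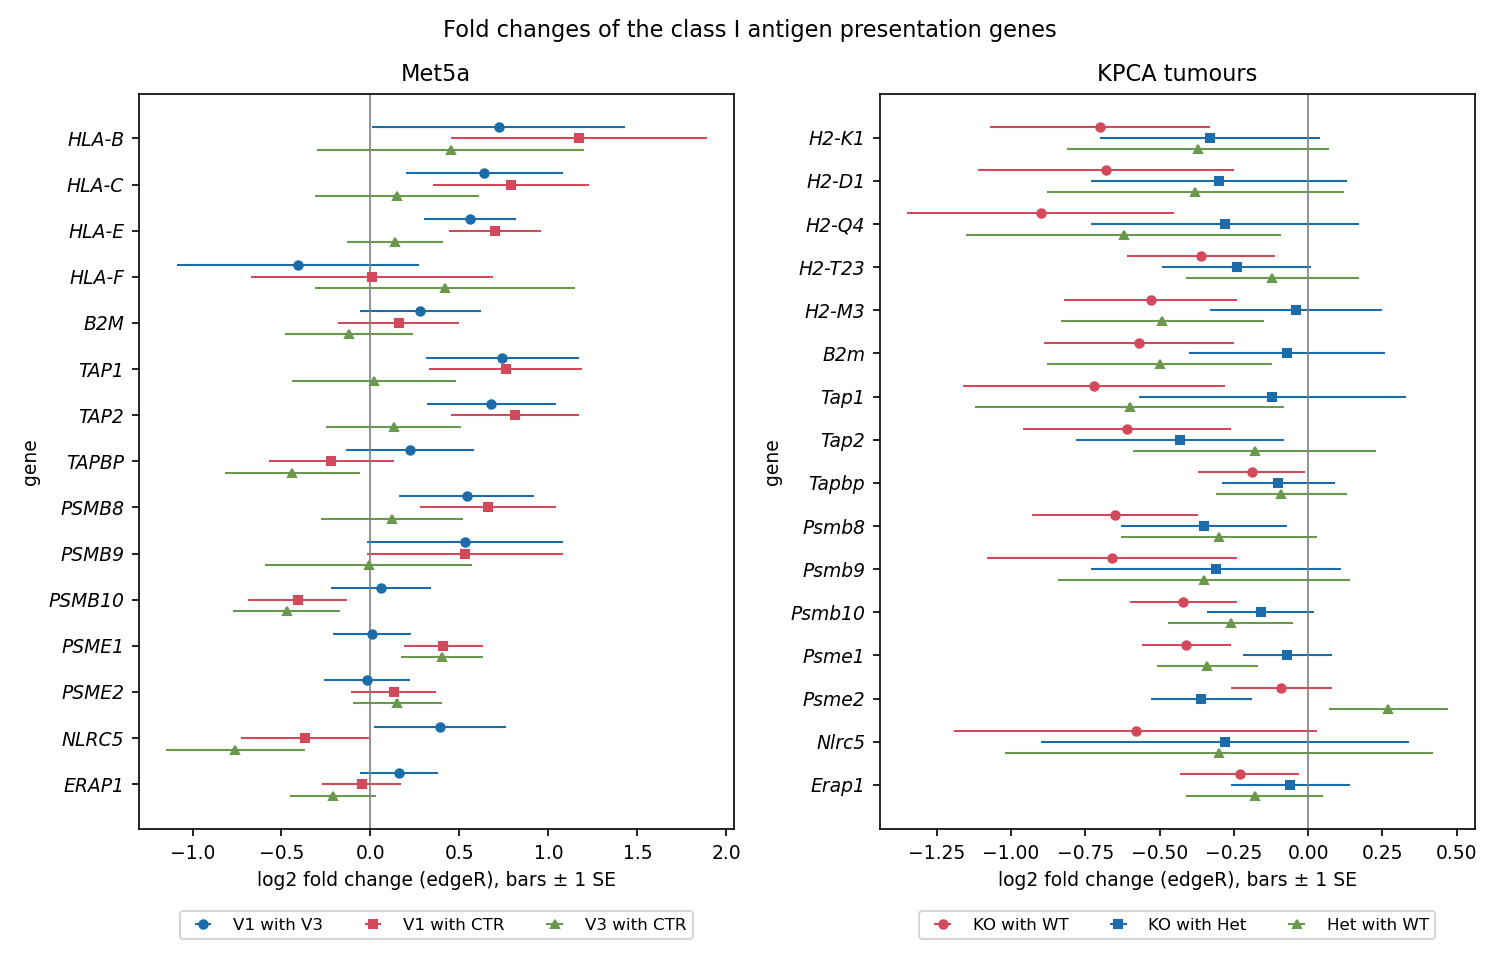
Log2 fold changes from edgeR (x axis, bars ± 1 SE) of the members in Met5a (left) and the tumours (right), with 1 symbol for each comparison. HLA-B has the widest bars in Met5a, and in the tumours every KO with WT value is below 0.

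The other genes of the pathway were counted in the same fits. Of 24 interferon-stimulated genes, 23 had a log2 fold change above 0 in V1 relative to V3 (median 0.93) and 18 in V1 relative to CTR (median 0.72), but 0 passed in edgeR in any of the 3 comparisons. In V1 relative to CTR 6 of them had an unadjusted edgeR p under 0.05, 5 with a value above 0 and 1 below it. USP18 (log2 fold change 1.79, SE 0.46) and MX1 (2.19, SE 0.71) were above 0. GBP2 was below 0, at 6.67 ± 3.12 CPM in V1 and 17.9 ± 15.2 in CTR (SD, n = 4 and 3; log2 fold change -1.43, SE 0.52). Of 23 tested inputs to class I transcription, such as interferon receptors, JAK kinases and the RFX and NF-Y subunits, 15 were above 0 in V1 relative to V3 (median 0.12) and 10 in V1 relative to CTR (median -0.13), with 0 called. The 15 constitutive proteasome genes had medians of -0.12 in V1 relative to V3, 0.01 in V1 relative to CTR and 0.12 in V3 relative to CTR. The 7 other peptide loading genes had medians of -0.14, -0.06 and 0.16 in the same comparisons. Neither list had a called gene in any of them, by edgeR.

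In the tumours B2m was again the most abundant member per gene length, at a mean of 1812 FPKM over the 8 tumours (803.6 to 2387). The classical heavy chains H2-D1 and H2-K1 followed at 528 FPKM (171.4 to 756.5) and 332.1 FPKM (128 to 531.4), then Tapbp at 105.2 (85 to 128.7) and H2-T23 at 72.1 (41 to 86). Psme1 (52.6), H2-Q4 (39.5), Psmb10 (37.8), Psme2 (33.2), Tap1 (20.2), Psmb8 (18.4), H2-M3 (15.3) and Tap2 (11.2 FPKM) stood below them. Erap1 (7.49), Psmb9 (5.5) and Nlrc5 (3.31 FPKM) were lowest. Neighbours in this order overlapped in range except for B2m and H2-D1, and the overlap of Tapbp with either neighbour was slight.

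KO543 stood apart. It was the lowest of the 8 tumours in 13 of the 16 members, against 19% of all genes tested, and WT568 was the highest in 11, against 14.4%. Both tumours were singled out from the member values themselves, so these shares too are a description and not a test. H2-K1 had 975.9, 672.8, 882.5 and 335.1 CPM in KO437, KO445, KO479 and KO543, 1025 and 775.1 in Het563 and Het569, and 916.5 and 1411 in WT438 and WT568. H2-D1 had 1607, 911.4, 1586 and 443.6 CPM in KO, 1622 and 1174 in Het, and 1661 and 1986 in WT. For H2-D1 every KO tumour lay below both WT tumours, KO437 by only a little. H2-Q4, a nonclassical heavy chain, had 120.2, 67.9, 106 and 32.1 CPM in KO, 122.5 and 75.2 in Het, and 110.7 and 193.5 in WT. H2-T23, which encodes Qa-1, the mouse counterpart of HLA-E, had 230.4, 192.4, 210.6 and 119 CPM in KO, 249.1 and 195.2 in Het, and 248.6 and 235.7 in WT. KO437 lay above WT438 for H2-Q4, and no KO tumour lay above a WT tumour for H2-T23. H2-M3, which presents formylated peptides, had 22.7, 20.9, 24.3 and 11.5 CPM in KO, 23.6 and 17.2 in Het, and 29 and 28.2 in WT.

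B2m had 1825, 1477, 1559 and 693.8 CPM in KO, 1659 and 1248 in Het, and 2053 and 2062 in WT. Tap1 had 125.4, 112.4, 110.4 and 30.3 CPM in KO, 121.7 and 83.4 in Het, and 134 and 177.1 in WT. For both genes all KO and Het tumours lay below both WT tumours, with KO543 far below the other KO tumours. Tap2 had 40.6, 42.1, 40.9 and 16.8 CPM in KO, 58.7 and 36.1 in Het, and 44.6 and 62.5 in WT. Psmb8 had 50, 42.2, 52.1 and 23.2 CPM in KO, 56.7 and 50.1 in Het, and 59.3 and 72.3 in WT, and again all KO and Het tumours lay below WT. Psmb9 had 19.4, 19.8, 21.8 and 6.39 CPM in KO, 24.7 and 17.2 in Het, and 20.9 and 32.4 in WT. Psmb10 had 62, 67.3, 58.7 and 45.2 CPM in KO, 65.3 and 65.2 in Het, and 80.5 and 75.4 in WT. Psmb9 overlapped between KO and WT, and Psmb10 did not.

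Psme1 had 113.9, 100.4, 113.3 and 100.8 CPM in KO, 110.1 and 114.2 in Het, and 154.5 and 129.2 in WT. Psme2, its partner, was ordered differently, at 43.4, 55.3, 54.9 and 63.9 CPM in KO, 68.7 and 71.2 in Het, and 55.6 and 60 in WT, so the Het tumours were highest. Nlrc5 had 29.4, 33.1, 27.1 and 6.9 CPM in KO, 36.5 and 22.1 in Het, and 14.3 and 57.8 in WT. The WT tumours were the second lowest and the highest of the 8 for Nlrc5. Tapbp ranged over 281.3 to 355.2 CPM in KO, 324 to 387.5 in Het and 326.4 to 431.7 in WT. Erap1 ranged over 48 to 56 CPM in KO, 47.4 to 61.3 in Het and 48.8 to 74 in WT.

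**Figure D4:**
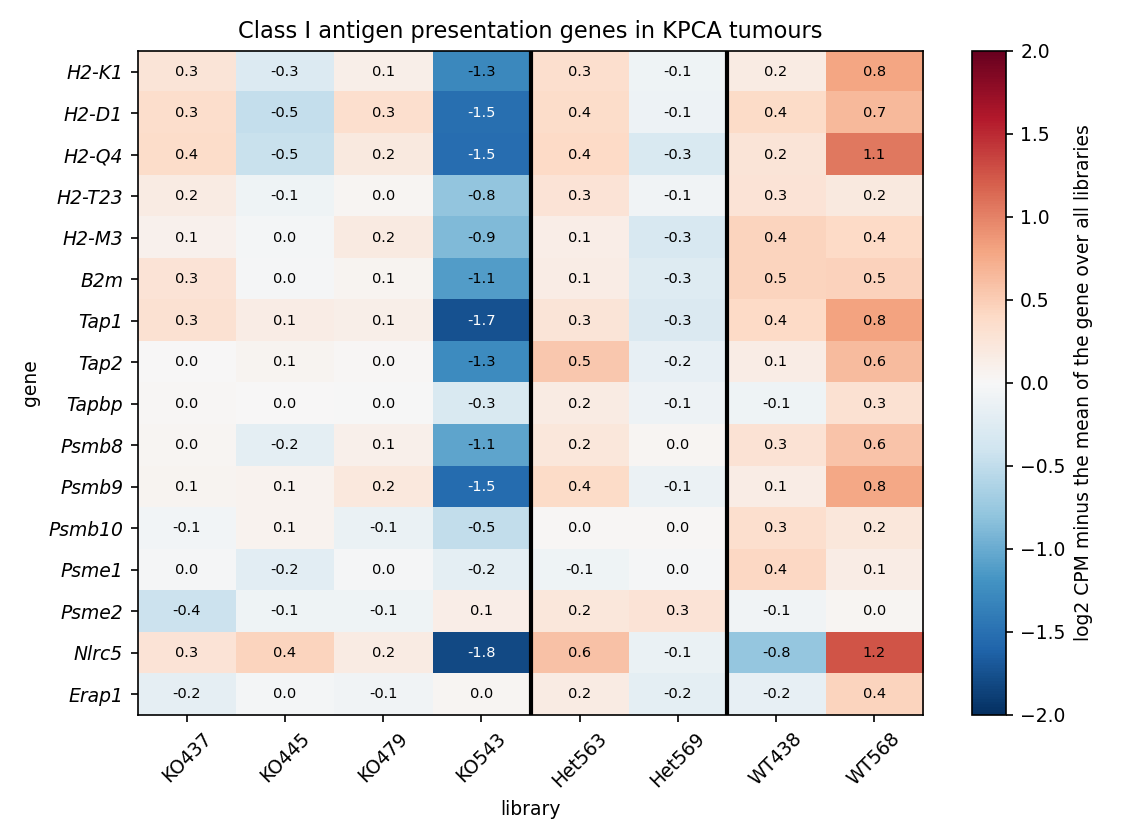
Log2 CPM of the 16 mouse members after subtracting the mean of each gene across the 8 tumours (colour and number), with members down the page and KO, Het and WT tumours from left to right. KO543 is lowest in 13 of the 16 members and WT568 highest in 11.

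In KO relative to WT, the comparison of knock-out with wild-type animals, all 16 members had a log2 fold change below 0, against 51.6% of the 16287 genes tested, with a median of -0.57 against -0.01. In edgeR 0 members passed an adjusted p of 0.05, where 0% of all genes did, and DESeq2 and limma also called 0. An unadjusted edgeR p under 0.05 was reached by 3 members, against 3.98% of all genes, and by 4 in DESeq2 and 2 in limma. These were Psmb8, with 41.9 ± 13.1 CPM in KO and 65.8 ± 9.17 in WT (log2 fold change -0.65, SE 0.28), Psmb10, with 58.3 ± 9.41 in KO and 77.9 ± 3.59 in WT (-0.42, SE 0.18), and Psme1, with 107.1 ± 7.5 in KO and 141.8 ± 17.9 in WT (-0.41, SE 0.15). All 3 had an edgeR adjusted p of 0.95 (SD, n = 4 and 2). The largest log2 fold changes were those of H2-Q4 (-0.90, SE 0.45), Tap1 (-0.72, SE 0.44), H2-K1 (-0.70, SE 0.37) and H2-D1 (-0.68, SE 0.43). Every KO tumour lay below both WT tumours in 9 members, H2-D1, H2-T23, H2-M3, B2m, Tap1, Tap2, Psmb8, Psmb10 and Psme1, which 5.26% of all genes did. Without KO543 the median was -0.36, and the other 3 KO tumours lay below both WT tumours in 10 members, which 7.42% of all genes did. In a fit with no filter on low counts, H2-Q4 passed in edgeR (log2 fold change -0.88, adjusted p = 0.0037), as did 276 genes in all.

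In KO relative to Het all 16 members were again below 0, against 46.9% of all genes, with a median of -0.26 against 0.02. In edgeR 0 members passed the adjusted threshold (0% of all genes) and 0 had an unadjusted p under 0.05 (1.71%), and DESeq2 and limma called 0. Psme2 was the 1 member with all KO tumours below both Het tumours, which 5.68% of all genes had, at 54.4 ± 8.44 CPM in KO and 69.9 ± 1.74 in Het (SD, n = 4 and 2; log2 fold change -0.36, SE 0.17, edgeR adjusted p = 1). The median was -0.04 without KO543 and also -0.04 without Het563, and -0.39 without Het569. In Het relative to WT 15 of 16 members were below 0, against 51.5% of all genes, with a median of -0.32, and Psme2 was at 0.27. Again 0 passed in edgeR (0% of all genes), 0 had an unadjusted p under 0.05 (1.93%), and DESeq2 and limma called 0. Both Het tumours lay below both WT tumours in 7 members, against 13.9% of all genes, and above them in Psme2, against 14.7%. The median was -0.57 without Het563, -0.17 without Het569 and -0.16 without WT568. The 3 comparisons share tumours, so their directions are not independent of each other.

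With WT and Het pooled, all 16 members were below 0 in KO, against 49.4% of all genes, with a median of -0.37. In edgeR 0 passed (0% of all genes), 0 had an unadjusted p under 0.05 (3.71%), and 0 had every KO tumour below all 4 others (1.11%), and DESeq2 and limma called 0. Without KO543 the median was -0.20. KO543 lay below all WT and Het tumours in 14 members, against 24.7% of all genes. KO445 did so in 7 members (18.9% of all genes), KO437 in 3 (18.3%) and KO479 in 2 (13.7%).

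The member score, as defined above, was 0.10, -0.07, 0.07 and -0.96 in KO437, KO445, KO479 and KO543, 0.26 and -0.11 in Het, and 0.16 and 0.55 in WT. The score of 22 interferon-stimulated genes was -0.27, 0.49, -0.03 and -1.91 in KO, 0.54 and 0.04 in Het, and 0.47 and 0.67 in WT, with KO543 lowest and WT568 highest on both. In bulk tumour RNA, fewer cells of a type and less RNA per cell cannot be told apart. Summed CPM of the 9 macrophage and myeloid markers was 3052, 3744, 3251 and 1581 in KO, 3313 and 3457 in Het, and 3335 and 3569 in WT. Csf1r, 1 of these markers and the receptor of macrophage growth factor, was at 154.1 CPM in KO543 and at 254.4 to 428.7 in the others. Of the 9 markers, 7 had a log2 fold change below 0 in KO relative to WT and 2 above. Summed CPM of 12 T and NK cell markers was 6.64 to 14 in KO, 11.1 and 11 in Het, and 6.24 and 21.8 in WT, with Cd8a at a count of 0 in WT438. Summed CPM of the 5 fibroblast markers was 9856 to 12370 in KO, 8981 and 9170 in Het, and 7591 and 7838 in WT. These sums did not overlap, but they were mostly Col1a1 and Col3a1, with means of 5700 and 4994 CPM in KO. On the score, which weighs the 5 genes alike, the groups overlapped. It was -0.29 to 0.25 in KO, 0.12 and -0.05 in Het, and -0.31 and -0.03 in WT. Summed CPM of the 7 epithelial and Mullerian markers was 3762, 2309, 3758 and 3402 in KO, 3126 and 3690 in Het, and 4213 and 3251 in WT, with KO543 inside the range of the others. On the score of the same 7 markers KO543 was the highest tumour, at 1.11, against at most 0.19 in the others. Of these markers Epcam, chosen after its values were seen, was at 119 CPM in KO543 and at most 1.75 in the other tumours. The part of these cell markers in the member values was not tested.

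Of the 22 interferon-stimulated genes, 21 were below 0 in KO relative to WT (median -0.77) and 20 in KO relative to Het (median -0.43), with 0 called in edgeR. Ifit1 had the smallest p, at 47.2 ± 25.9 CPM in KO and 122.6 ± 31.6 in WT (SD, n = 4 and 2; log2 fold change -1.38, SE 0.45, edgeR adjusted p = 0.95). The 23 tested inputs to class I transcription divided almost evenly in KO relative to WT, with 12 below 0, while 17 were below 0 in KO relative to Het (median -0.10). Of the 15 constitutive proteasome genes 14 were below 0 in KO relative to WT (median -0.18) and 3 in KO relative to Het (median 0.09). In Het relative to WT 14 were below 0 as well (median -0.28). Summed CPM of these 15 genes was 2922 in WT438 and 1659 in WT568, against 1771 to 2257 in KO, so the WT tumours lay on either side of KO. Of the 6 other peptide loading genes 3 were below 0 in KO relative to WT (median -0.03) and 6 in KO relative to Het (median -0.11). Not 1 gene of these lists passed in edgeR (0 called).

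For the exchange of catalytic subunits, RNA of each inducible subunit was set against RNA of the constitutive subunit it replaces, as a log2 ratio of FPKM values. This ratio does not depend on the scaling of libraries. It moves with the constitutive subunit too, and the protein subunits of assembled proteasomes were not measured. PSMB8 over PSMB5 was -3.54, -2.51, -2.75 and -3.72 in V1 1 to 4, -3.75, -3.51 and -3.36 in V3, and -3.87, -3.95 and -2.79 in CTR. PSMB9 over PSMB6 was -6.12, -3.03, -3.73 and -5.17 in V1, -4.89, -4.87 and -4.42 in V3, and -4.58, -4.90 and -4.30 in CTR. The V1 libraries held both the highest and the lowest PSMB9 ratio. PSMB10 over PSMB7 averaged -4.84 ± 0.32 in V3 and -3.97 ± 0.71 in CTR (SD, n = 3 each), a difference of -0.87 with no overlap, and the two-sided exact permutation test gave p = 0.1, the smallest that 3 against 3 allows. The 3 CTR values were -4.24, -4.51 and -3.17, and without CTR 3 the difference was -0.47. In the tumours Psmb8 over Psmb5 was -2.47, -2.59, -2.55 and -3.93 in KO, -2.24 and -2.79 in Het, and -3.13 and -1.71 in WT. In WT438 and WT568, Psmb8 was at 21.7 and 26 FPKM and Psmb5 at 190.4 and 85.1 FPKM. Psmb9 over Psmb6 was -3.76, -3.53, -3.72 and -5.60 in KO, -3.22 and -4.06 in Het, and -4.45 and -2.80 in WT. KO543 was the lowest tumour and WT568 the highest for both ratios. The difference between KO and WT was -0.46 for Psmb8 over Psmb5 and -0.52 for Psmb9 over Psmb6. Without KO543 these differences were -0.11 and -0.04, without WT568 they were 0.25 and 0.30, and without WT438 they were -1.17 and -1.35. Psmb10 over Psmb7 averaged 0.68 ± 0.35 in KO, 0.92 ± 0.16 in Het and 1.02 ± 0.41 in WT, so this inducible subunit was above its constitutive counterpart in the tumours and below it in Met5a. The 2 sets differ in species, gene models and kind of sample. Human PSMB10 also shares 1516 bases with AC040162.1 on the same strand, and the part of this overlap in the Met5a ratio was not tested. Over the 21 exact permutation tests of the ratios, the smallest adjusted p was 0.98. KO with WT could not reach a p under 0.0667 in this test, nor Het with WT one under 0.333.

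**Figure D5:**
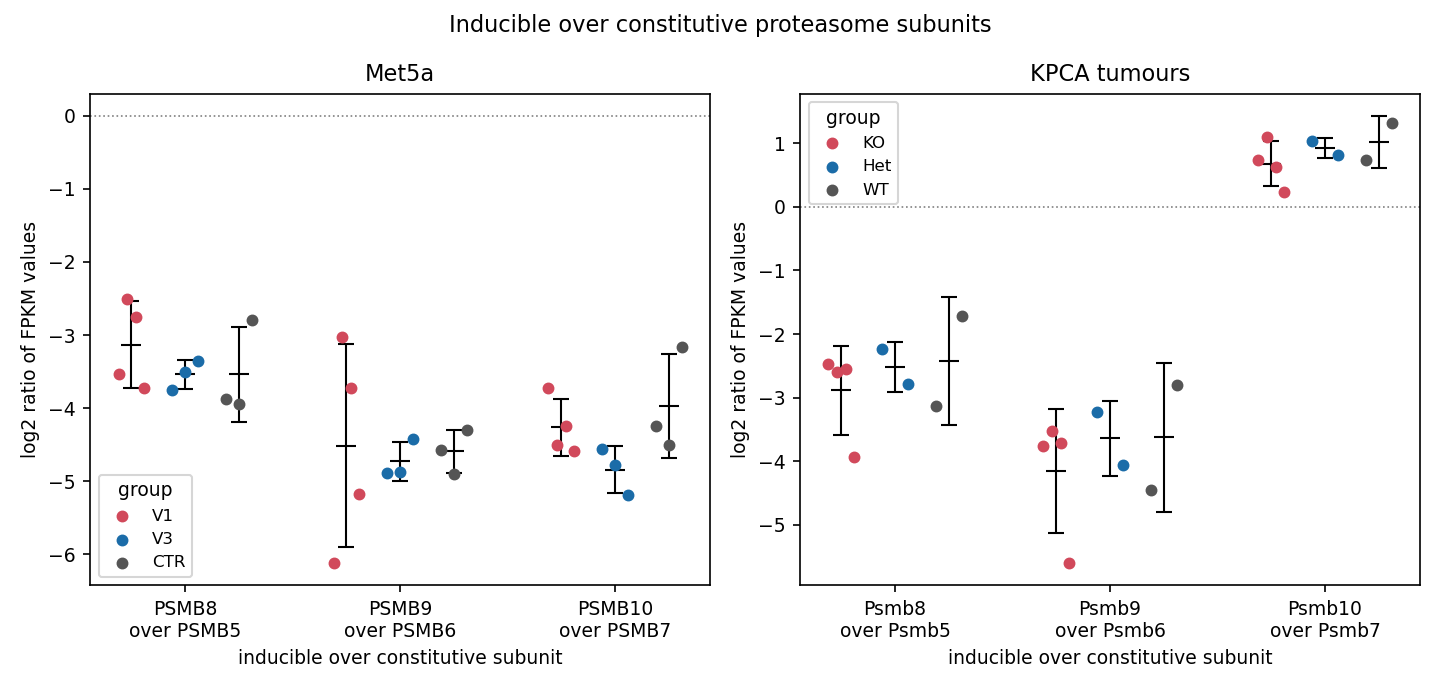
Log2 ratio of FPKM values (y axis) of each inducible proteasome subunit over its constitutive counterpart in Met5a (left; V1, V3, CTR) and the tumours (right; KO, Het, WT). Points are libraries, and black bars give the mean ± SD. V1 spans from -6.12 to -3.03 for PSMB9 over PSMB6, and KO543 is the lowest tumour for Psmb9 over Psmb6, at -5.60.

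The genes whose log2 CPM followed the mean of the members most closely, among protein-coding genes outside the lists with a mean of at least 5 CPM, were ranked by Pearson's r as a description with no test. In Met5a, over 10 libraries and 10877 genes, they were STAT6 (0.98), FLOT1 (0.97), STAM2 (0.97), NIPAL2 (0.96) and STX7 (0.96), each lowest in V1 1 and highest in V1 2 or V1 3. STAT6, the transcription factor of interleukin-4 signalling, ranged from 48.1 to 165.7 CPM. In the tumours, over 8 libraries and 10641 genes, they were Mtus1, Icosl, Vcam1, Samhd1 and Rab7b (0.98 each), each lowest in KO543 and highest in WT568. Vcam1, an adhesion molecule for leukocytes, ranged from 131.8 to 304.8 CPM. The values of each library share its depth and scaling, and r was not recomputed without V1 1, V1 2 and V1 3 or without KO543.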

How the data were processed

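Bulk RNA was measured in 10 Met5a libraries and 8 KPCA tumours. The authors deposited, for each species, 1 table of whole-number counts for every gene and 1 table of FPKM values. Per the labels' protocols, a column kit was used to extract RNA and a company made the libraries. The sources used here do not give the aligner, the counter, strandedness or the mouse genome build. GENCODE 29 on GRCh38 matched the coordinates of all 58735 human genes.

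Groups follow the sample titles. In R 4.3.3 with edgeR 4.0.16, filterByExpr (minimum count 10) left 17175 human and 16287 mouse genes. The quasi-likelihood test was fitted over all libraries of a species with TMM factors and 1 coefficient per group, two-sided, with Benjamini-Hochberg adjustment over all genes and a threshold of 0.05. CPM values use TMM-scaled library sizes, and log2 CPM has a prior count of 2. Ratios of subunits were compared by exact permutation tests. A count of 0 allows up to 3 counts. This limit covers only counting error, since reads are not independent molecules. The alternatives tried were RLE factors, a fit without the filter, DESeq2 1.42.0, limma 3.58.1 on log2(FPKM + 1) for genes with a mean FPKM of at least 1, fits to the groups compared alone, fits without 1 library each, a block for the replicate number in Met5a, and the removal of V1 1 with CTR 3 or of KO543 with WT438. The scripts were tested on simulated data.

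The members and the lists were chosen with earlier results of these data known. All members are named. Of the other lists, up to 4 genes with the smallest p in the comparison described are named, together with genes that check a cell type. A gene of the lists that this rule would name is not reported here. The lists hold interferon-stimulated genes, inputs to class I transcription, other peptide loading genes, constitutive proteasome genes, other class I genes, and markers of cell types.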

Additional observations from a re-analysis of the deposited data

Results flagged for a closer look

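In the KO group, 5 members had 1 tumour far from the other 3, in each case KO543 on the low side. On log2 CPM, the gap to the nearest tumour, as a share of the whole range of the group, was 0.910 for Tap1 (30.3 CPM in KO543), 0.962 for Tap2 (16.8 CPM), 0.884 for Tapbp (281.3 CPM), 0.907 for Psmb9 (6.39 CPM) and 0.873 for Nlrc5 (6.9 CPM), each above Dixon's 95% critical value for 4 samples. On CPM without the log, the share for Nlrc5 was 0.773, below that value, and the other 4 genes stayed above it, at 0.842 to 0.943. Such a gap was looked for in 31 groups of 4 samples, the 15 human members in V1 and the 16 mouse members in KO. Chance alone gives about 1 in 20 groups, and the 5 genes come from the same tumour and are not independent of each other. KO543 also had the lowest summed macrophage and myeloid markers of the 8 tumours (1581 CPM), with the single marker Csf1r at 154.1 CPM. Its Epcam was the highest (119 CPM), while its summed epithelial and Mullerian markers (3402 CPM) lay inside the range of the others. The score of those epithelial and Mullerian markers was highest in KO543, at 1.11, against at most 0.19 elsewhere. The part of all these markers in the member values was not tested.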

How the results depend on the processing

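The count of members called by edgeR, 0 in each of the 7 comparisons, differed in 1 case only among the alternatives run. With no filter on low counts, 1 member (H2-Q4) was called in KO relative to WT, in a fit that tests more genes and calls 276. When libraries were left out 1 at a time, the median log2 fold change of the members ranged from 0.16 to 0.51 in V1 relative to V3, 0.16 to 0.52 in V1 relative to CTR, and 0.00 to 0.14 in V3 relative to CTR. In the tumours it ranged from -0.69 to -0.36 in KO relative to WT, -0.39 to -0.04 in KO relative to Het, -0.57 to -0.16 in Het relative to WT, and -0.51 to -0.20 in KO relative to both. In Met5a, deviations of same-numbered libraries from their group means correlated between -0.19 and 0.29. Libraries with different numbers were not compared, so these values do not settle whether the replicate numbers pair the libraries. With the replicate number as a block, 0 members were called and the medians were 0.41, 0.46 and 0.12. Tumour numbers are shared by no groups. Among values of single members and of single subunit ratios, 88 changed sign while uncalled before and after. In 1722 others neither the sign nor the call changed. The SD of log2 CPM within groups reached 1.23 for HLA-B, which limits what 2 to 4 samples a group can show.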

Other observations

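Other class I and class I-like genes outside the member list were counted in the same fits. In Met5a, 8 of 10 tested genes had a log2 fold change above 0 in V1 relative to V3 (median 0.50) and 8 of 10 in V1 relative to CTR (median 0.26), with 0 called by edgeR. MICB, a ligand of the activating receptor NKG2D, had 52.9, 53.3, 54.7 and 33.9 CPM in V1 1 to 4, 36.7, 32.8 and 33.4 in V3, and 28.6, 29.1 and 39.3 in CTR. V1 1, which was low in most members, stood with V1 2 and V1 3 for MICB (log2 fold change 0.59 in V1 relative to CTR, SE 0.21, edgeR adjusted p = 0.59). CD1D, which presents lipids, had 1.39, 0.793, 0.612 and 3.42 CPM in V1, 4.08, 3.16 and 1.44 in V3, and 6.36, 5.95 and 7.9 in CTR. All V1 and V3 libraries lay below all CTR libraries for CD1D (-2.12 in V1 relative to CTR, SE 0.57, edgeR adjusted p = 0.569). Of all genes tested, 3.34% had every V1 library below CTR and 5.17% had every V3 library below CTR. In the tumours 8 of 10 tested genes were below 0 in KO relative to WT (median -0.37), with 0 called by edgeR. Of these H2-T22 had the smallest p, at 133.2 ± 47.5 CPM in KO and 192.9 ± 16.4 in WT (SD, n = 4 and 2; log2 fold change -0.53, SE 0.32, edgeR adjusted p = 0.95).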
